A study of Mus musculus with 12 samples.

Results

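Radiation-induced senescence was described in mouse adult fibroblasts (MAFs) that lack Bmal1, by comparing irradiated KO cells with sham-irradiated KO cells across all genes of the deposited counts. The comparison used 6 of the 12 RNA-seq libraries of the series, 3 of KO senescent and 3 of KO control MAFs, each placed by its label, and 17416 of 49315 listed genes passed the filter on low counts. MAFs (primary MAF in the labels) are cells grown from the ears of adult female mice. KO cells carried the genotype BMAL1 -/- in both groups, so the deletion is common to all 6 libraries and does not vary within the comparison. KO control cells were sham irradiated (0 Gy) and KO senescent cells had received 20 Gy of X-rays. The paper's methods keep irradiated cells in culture for some weeks afterwards and state no such interval for sham-irradiated cells. Time in culture may therefore differ along with the dose and cannot be told apart from it. Every culture was given 100 nM dexamethasone, a glucocorticoid that sets working clocks of a culture to a common phase, for 2 hours. Collection followed 12 hours later, so all levels belong to this single time point. The paper describes Bmal1 -/- mice as arrhythmic and without a working clock, so the time point is no clock phase in KO cells. The remaining 6 libraries, 3 of WT control and 3 of WT senescent MAFs from C57BL6/J mice given the same treatments, were used where the KO response was tested against the WT response. No label says whether replicates came from separate animals or cultures, so p-values measure the spread between these samples, which may be technical.

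Levels are given as CPM (counts per 1e+06 counts of the scaled library) and responses as the log2 fold change of KO senescent over KO control with its standard error (SE). A gene was called higher or lower where the edgeR quasi-likelihood test gave a Benjamini-Hochberg adjusted p under 0.05 and the log2 fold change passed 1 or -1. "Rose" and "fell" are used of genes that passed the adjusted p. The difference of responses is the KO log2 fold change minus the WT one, with the same thresholds. CPM are not divided by gene length, so levels are compared between groups and not between genes.

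Arntl, the annotated symbol of the targeted gene Bmal1, was read in every library. It measured 15.2, 11.8 and 12.5 CPM in KO control and 27.0, 25.3 and 27.4 CPM in KO senescent libraries, against 29.8, 31.6 and 33.2 CPM in WT control and 37.3, 35.8 and 35.2 CPM in WT senescent libraries. All KO libraries lay below all WT libraries, but a gene count sums reads over all exons and does not show which exons were read. Arntl transcript nevertheless rose in KO senescence, by 1.02 ± 0.09 (adjusted p = 1.96e-09), more than the 0.20 in WT (difference 0.82 ± 0.12, adjusted p = 7.57e-05). The KO change was short of the fold threshold without replicate 2 (0.93) or 3 (0.98) of KO control, and without KO senescent replicate 3 (0.99).

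Totals of the 6 KO libraries ran from 24742546 to 31736083 counts, and the leading principal component held 78.4% of the variance and separated the KO groups. Transcripts of fibroblasts were abundant: the summed level of 12 fibroblast markers was 25500 to 26800 CPM in KO control and 12200 to 12600 CPM in KO senescent libraries. The sum holds the collagens Col1a1 (means of 9318 and 2952 CPM), Col1a2 (6841 and 2953 CPM) and Col3a1 (4967 and 1623 CPM). Of the 12 markers 4 rose and 6 fell, with a median log2 fold change of -0.10. Cartilage transcripts were also abundant and are described with the matrix genes. Summed markers of other cell types were low, at 31.1 to 36.3 against 46.8 to 52.4 CPM for keratinocytes, 12.7 to 15.7 against 15.2 to 20.3 CPM for macrophages, 8.01 to 9.31 against 8.5 to 12.1 CPM for endothelium and 12.7 to 21.7 against 6.75 to 14.8 CPM for T and B cells, with Cd3d and Cd3g at 0 in all 6. Muscle markers spanned 26.6 to 36.1 against 26.6 to 30.5 CPM, melanocyte markers 6.35 to 11.3 against 12.3 to 13.7 CPM, Schwann cell markers 42.5 to 43.3 against 36.5 to 38.8 CPM and adipocyte markers 194 to 197 against 156 to 173 CPM.

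Senescence is a lasting exit from the cell cycle. DNA damage stabilises p53, which induces the kinase inhibitor p21 (Cdkn1a), while p16 (Cdkn2a) blocks CDK4 and CDK6, and both keep the retinoblastoma proteins active, so that E2F and MuvB complexes shut replication and mitosis genes. Senescent cells lose lamin B1, reorganise chromatin, enlarge their lysosomes and secrete growth factors, cytokines and proteases, and DNA in their cytoplasm can switch on interferon genes.

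In KO senescence, 1957 genes were called higher (11.2% of those tested) and 1321 lower (7.58%). With no fold threshold, 4964 genes rose (28.5%) and 4983 fell (28.6%), and the median log2 fold change over all genes was close to 0. Among families of symbols with at least 15 tested genes, histone genes (Hist) had the largest share called higher, 33 of 39 (84.6%). The WNT ligands followed with 10 of 15 (66.7%) and the interferon-inducible Ifi genes with 8 of 15 (53.3%). The Hist family also held 1 gene called lower, Hist1h2ao. Col symbols, nearly all collagens, led the families called lower with 20 of 40 (50%), before the Rad genes, mostly repair factors, with 8 of 18 (44.4%). Kif symbols, nearly all kinesins, followed with 12 of 36 (33.3%). The symbols Col4a3bp and Kif1bp, which do not name a collagen or a kinesin, are counted in them and were not called. Among noncoding genes, 97 of 493 lincRNAs were called higher (19.7%) and 49 lower (9.94%), and 15 of 61 bidirectional-promoter lncRNAs were called higher (24.6%) with 0 lower. The low-count filter asked for 0.382 CPM in at least 3 libraries, so a gene that met it only with the help of senescent libraries was likely to lie higher in them, and the shares called higher are in part set by the filter. Of the 15662 genes that met it in the 6 control libraries (KO and WT) alone, 1139 were called higher (7.27%). Of the Hist genes 20 did so and 16 of these were called, of the WNT ligands 10 and 5, and of the Ifi genes 10 and 5.

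**Figure D1:**
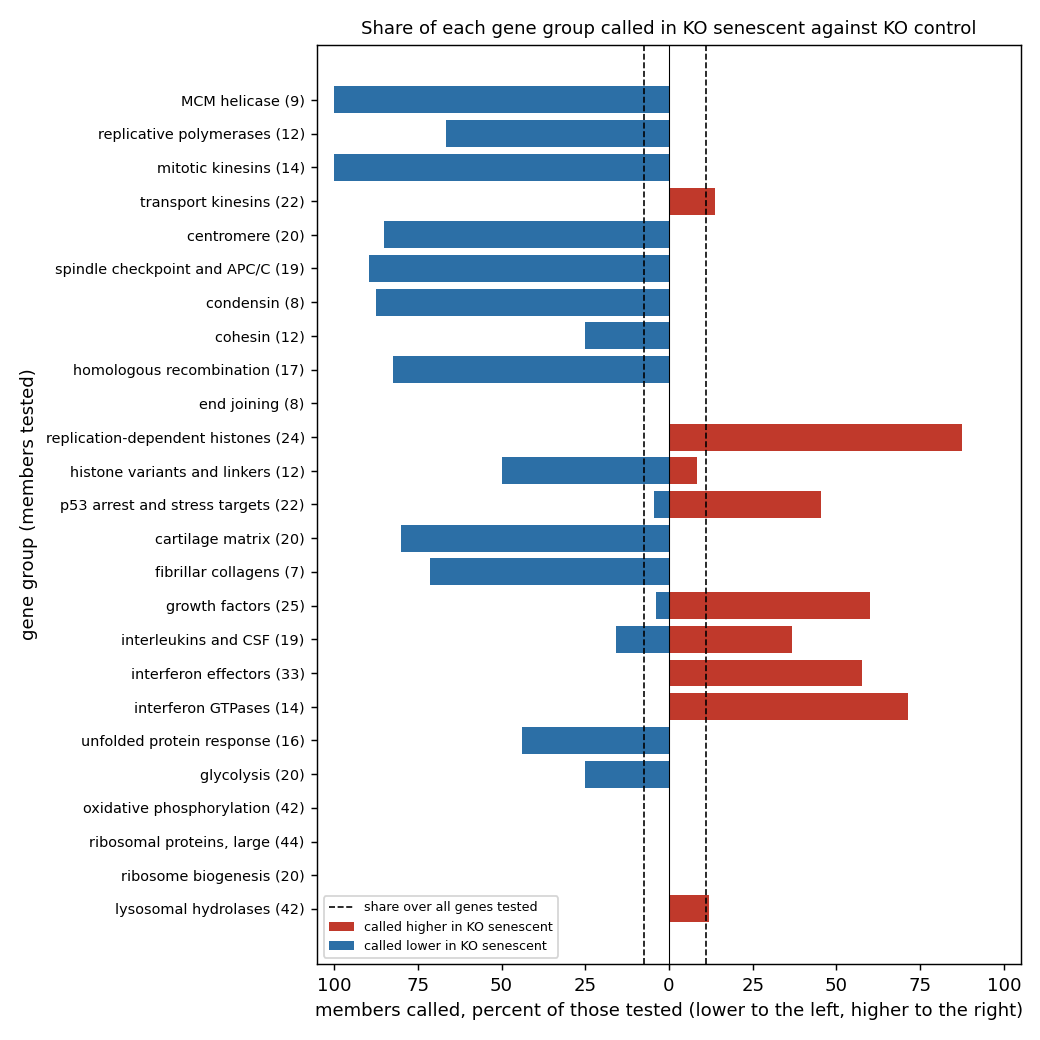
Share of each gene group called lower (blue, to the left) or higher (red, to the right) in KO senescent against KO control MAFs, in percent of the members tested, with the share over all genes as dashed lines at 7.58% and 11.2%. All 9 genes listed with the MCM helicase and all 14 mitotic kinesins were called lower, while no oxidative phosphorylation or ribosome gene was called in either direction.

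The WT arm gave 2012 genes called higher (11.6%) and 1027 lower (5.9%). The response itself differed between genotypes in 637 genes: it was called higher in KO for 200 genes (1.15%) and lower in KO for 437 (2.51%). Leaving out WT control replicate 3 moved the former count to 346. KO and WT libraries were deposited as separate tables, so genotype and handling cannot be told apart, but a shift common to one genotype cancels in the difference of responses.

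Because the groups that moved most are known to be read through short promoter motifs, promoters of a few members are shown before their values. Mitotic genes are controlled by the CHR element (TTTGAA) and the CCAAT box, S-phase genes by E2F sites (searched as TTCCCGC), and interferon-stimulated genes by the ISRE (searched as GAAANNGAAA). Letters were searched on both strands in the 250 bases before each RefSeq start (GRCm38.p6), and of 27025 genes with a promoter 18.3% held a CHR, 37.5% a CCAAT box, 6.45% both, 4.38% the E2F letters and 3.46% the ISRE letters. Among genes tested in the RNA-seq the shares were 13%, 39.8%, 4.84%, 7.67% and 3.14%. The ends of these motifs can share bases with one another, and a match is a description of the window and not evidence of binding.

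The 100 bases before the start of 6 mitotic genes, chosen after their values were seen because a CHR and a CCAAT box lie close to the start, are printed 5′ to 3′ on the strand of the gene. Capitals mark the CHR (TTTGAA, or TTCAAA on the other strand) and the CCAAT box (CCAAT or ATTGG).
Cdc20 (chr4:118437344-118437443, minus strand): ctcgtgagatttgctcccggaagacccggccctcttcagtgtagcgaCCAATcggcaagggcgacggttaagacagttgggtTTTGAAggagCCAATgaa
Kif11 (chr19:37376282-37376381, plus strand): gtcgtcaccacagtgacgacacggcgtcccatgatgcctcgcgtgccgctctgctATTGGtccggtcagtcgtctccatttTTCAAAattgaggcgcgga
Kif22 (chr7:127042421-127042520, minus strand): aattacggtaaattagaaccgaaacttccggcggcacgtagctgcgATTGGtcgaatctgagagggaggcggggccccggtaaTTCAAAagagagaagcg
Ube2c (chr2:164769829-164769928, plus strand): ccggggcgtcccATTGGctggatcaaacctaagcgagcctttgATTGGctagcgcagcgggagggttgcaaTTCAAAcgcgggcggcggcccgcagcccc
Espl1 (chr15:102296193-102296292, plus strand): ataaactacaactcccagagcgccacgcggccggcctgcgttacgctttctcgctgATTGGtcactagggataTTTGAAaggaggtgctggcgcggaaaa
Bub3 (chr7:131560270-131560369, plus strand): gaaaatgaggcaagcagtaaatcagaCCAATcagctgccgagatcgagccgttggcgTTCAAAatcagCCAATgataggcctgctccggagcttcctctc
Of these, Cdc20, which activates the anaphase-promoting complex, fell from 118 to 12.5 CPM in KO senescence (mean of 3 libraries each). Kif11, the motor that separates spindle poles, fell from 128 to 7.21 CPM, and Kif22, a chromosome arm motor, from 65.0 to 6.15 CPM. Ube2c, the ubiquitin-conjugating partner of that complex, fell from 62.2 to 5.07 CPM and Espl1, the protease that cuts cohesin, from 61.3 to 5.81 CPM. Bub3, a checkpoint protein, held the same letters but fell only from 112 to 81.1 CPM (-0.47 ± 0.06). CHR and CCAAT letters occurred together in 3 of 13 mitotic kinesins with a promoter (23.1%), 7 of 36 centromere and checkpoint genes (19.4%) and 3 of 7 condensin genes (42.9%), and in 2 of 16 transport kinesins (12.5%). E2F letters were found in 8 of 32 replication genes (25%).

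The 100 bases before the start of 5 interferon genes, chosen in the same way, follow with the ISRE letters in capitals (GAAANNGAAA, or TTTCNNTTTC on the other strand).
Isg15 (chr4:156200819-156200918, minus strand): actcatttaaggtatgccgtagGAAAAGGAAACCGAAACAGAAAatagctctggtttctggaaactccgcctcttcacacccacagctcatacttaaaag
Ifit1 (chr19:34640789-34640888, plus strand): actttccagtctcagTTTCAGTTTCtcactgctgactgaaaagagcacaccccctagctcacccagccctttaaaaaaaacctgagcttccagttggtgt
Oas1a (chr5:120907526-120907625, minus strand): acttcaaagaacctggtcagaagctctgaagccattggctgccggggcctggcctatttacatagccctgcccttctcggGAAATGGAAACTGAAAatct
Igtp (chr11:58199456-58199555, plus strand): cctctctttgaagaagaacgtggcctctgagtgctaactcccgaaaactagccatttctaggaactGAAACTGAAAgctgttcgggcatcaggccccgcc
Gbp3 (chr3:142559944-142560043, plus strand): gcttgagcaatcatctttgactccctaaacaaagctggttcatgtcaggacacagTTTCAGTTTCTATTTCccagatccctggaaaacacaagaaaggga
Isg15, a ubiquitin-like antiviral protein, rose from 1.61 to 9.42 CPM in KO senescence. Ifit1, which binds foreign RNA, rose from 1.03 to 16.8 CPM, and Oas1a, of the family that senses double-stranded RNA, from 0.288 to 3.27 CPM. The GTPases Igtp and Gbp3, which attack the vacuoles of intracellular pathogens, rose from 1.59 to 12.3 and from 2.19 to 9.68 CPM. ISRE letters were present in 10 of 23 interferon effectors with a promoter (43.5%) and 9 of 9 interferon GTPases (100%).

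KO senescent cells had lost most transcripts of DNA replication. All 9 genes listed with the MCM helicase, which unwinds DNA, were called lower (median -2.51, against -2.35 in WT). The list includes Mcm10, which is not a part of the helicase itself. Called lower were also 8 of 9 firing factors (median -2.21) and 10 of 11 clamp and clamp loader genes (-1.76). Of 9 origin recognition and loading genes 5 were called lower (-1.07). Mcm5 measured 149.6, 143 and 146 CPM in KO control and 14.1, 15.6 and 15.2 CPM in KO senescent libraries. The 2 groups lay far apart with little spread inside each, and the log2 fold change was -3.29 ± 0.08 (adjusted p = 1.25e-17).

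Mcm10, which joins helicase and polymerase, fell from 38.6, 35.3 and 37.3 to 3.24, 3.47 and 2.40 CPM (-3.61 in KO, -2.99 in WT, difference -0.62 ± 0.16, adjusted p = 0.00963). The loading factor Cdc6 went from 51.8, 51.0 and 48.6 to 4.51, 4.96 and 3.91 CPM (-3.50 ± 0.11), and its opponent Gmnn, geminin, from 35.1, 31.0 and 32.6 to 5.13, 4.85 and 4.55 CPM (-2.76 ± 0.09). Both were far lower in every KO senescent library. Ticrr, which brings the firing factors to the helicase, fell from 31.6, 27.4 and 27.8 to 2.43, 1.84 and 1.79 CPM, more in KO (-3.85) than in WT (-2.97, difference -0.87 ± 0.22, adjusted p = 0.0072). Gins1, a helicase cofactor, changed by -2.85 ± 0.21, the Okazaki ligase Lig1 by -2.97 ± 0.06 and the chromatin assembly subunit Chaf1b by -2.79 ± 0.10.

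Among DNA polymerases the loss followed the role of the enzyme. Of 12 replicative genes 8 were called lower, with a median of -1.65, including the primase Prim1 (49.9, 43.7 and 43.3 against 6.40, 6.17 and 4.49 CPM) and the leading-strand polymerase Pole (73.9, 73.1 and 70.3 against 9.68, 10.8 and 8.81 CPM). Of 11 repair and translesion polymerases 2 were called lower, with a median of -0.15: Polq, the enzyme of microhomology-mediated joining, fell by 3.36, and Polh, which copies ultraviolet lesions, fell by 1.22. None of the 4 mitochondrial polymerase genes was called. Polg fell from 88.8, 79.5 and 81.2 to 48.0, 45.1 and 47.9 CPM (-0.82 ± 0.06) and Primpol changed by -0.74 ± 0.13, whereas Polrmt (0.08 ± 0.08, adjusted p = 0.407) and Polg2 (0.09 ± 0.18, adjusted p = 0.683) did not pass the test.

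Deoxynucleotide supply followed: 7 of 12 genes were called lower and 1 higher. Tk1, the cytosolic thymidine kinase of S phase, fell from 91.3, 77.2 and 79.8 to 11.3, 8.01 and 7.79 CPM (-3.20 ± 0.11). Its mitochondrial counterpart Tk2 rose instead, from 13.1, 12.8 and 12.1 to 27.2, 27.6 and 31.0 CPM (1.18 ± 0.08), and no library of either gene crossed between groups. Rrm1, the large ribonucleotide reductase subunit, fell by 2.56.

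Cyclins split by phase. Of 9 cell cycle cyclins, 6 were called lower and 1, Ccnd1, higher. Ccna2, of S phase and G2, fell from 183, 154 and 156 to 9.18, 7.79 and 6.65 CPM (-4.39 ± 0.14, against -3.62 in WT), and the mitotic cyclin Ccnb1 from 124, 89.2 and 97.1 to 7.13, 8.01 and 7.15 CPM (-3.79 ± 0.14, against -2.90). Both fell further in KO than in WT, with differences of -0.77 ± 0.20 (adjusted p = 0.0169) and -0.89 ± 0.19 (adjusted p = 0.00595). Ccnd1, which partners CDK4 and CDK6 in G1, measured 274, 261 and 247 CPM in KO control and 1019, 1034 and 1067 CPM in KO senescent libraries. The rise of 2.00 ± 0.07 exceeded the 1.41 of WT (difference 0.58 ± 0.09, adjusted p = 0.000143). Among 12 cyclins with other tasks only the p53 target Ccng1 was called, from 253, 213 and 225 to 664, 667 and 727 CPM.

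All 9 cell cycle kinase genes fell and 6 were called. Cdk1, the mitotic kinase, fell from 111, 94.6 and 96.9 to 12.8, 11.7 and 10.5 CPM and Pkmyt1, which holds it inactive, from 29.2, 26.0 and 28.2 to 3.28, 2.98 and 2.02 CPM. The kinase inhibitors moved in both directions. Cdkn1a (p21) rose from 238, 216 and 208 to 638, 704 and 705 CPM, by 1.63 ± 0.06 (adjusted p = 7.61e-15), a smaller rise than the 1.92 of WT (difference -0.29 ± 0.09, adjusted p = 0.0234). Cdkn2b (p15) rose from 9.31, 8.45 and 8.24 to 23.5, 25.3 and 27.2 CPM (1.55 ± 0.13).

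Cdkn2a, the locus of p16 and p19ARF, measured 3.60, 4.74 and 3.43 CPM in KO control and 7.09, 8.64 and 12.5 CPM in KO senescent libraries. The highest value was in KO senescent replicate 3, the groups did not overlap, and the change was 1.26 ± 0.22 (adjusted p = 5.05e-05), or 1.00 and not called without that replicate. Its WT change was -0.11, and the difference of responses was called (1.36 ± 0.32, adjusted p = 0.00473). A gene count cannot separate p16 from p19ARF, which share exons. The other 2 INK4 genes fell: Cdkn2c (p18) from 83.8, 81.4 and 85.2 to 25.1, 24.4 and 24.7 CPM and Cdkn2d (p19) from 32.9, 32.2 and 27.6 to 7.33, 10.4 and 8.74 CPM. Cdkn1b (p27) also fell, from 112, 111 and 109 to 47.1, 50.2 and 42.7 CPM (-1.24 ± 0.06), beyond its WT change of -0.47 (difference -0.77 ± 0.08, adjusted p = 5.93e-06). Cdkn1c (p57) passed the test with -0.28 ± 0.10 in KO while it stood at 0.63 in WT (difference -0.90 ± 0.14, adjusted p = 0.000132).

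**Figure D2:**
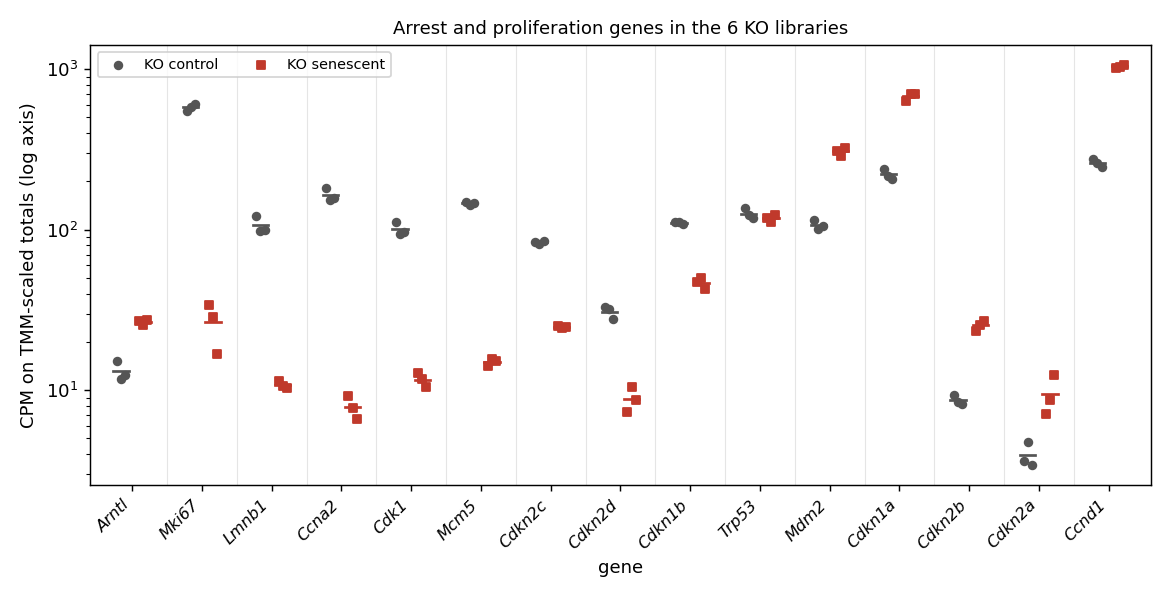
CPM (log axis) of 15 arrest and proliferation genes in the 3 KO control (grey circles) and 3 KO senescent (red squares) libraries, with the group mean as a bar. Mki67 went from 549.5, 580.5 and 609 CPM to 34.1, 28.4 and 16.8 CPM, Trp53 overlapped between groups, and Cdkn1a, Cdkn2b, Cdkn2a, Mdm2, Arntl and Ccnd1 lay higher in every KO senescent library.

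Mki67, a protein of dividing cells, fell by 4.46 ± 0.23 (adjusted p = 2.48e-07) without overlap. Of the E2F factors, the repressors E2f7 (49.8, 45.7 and 44.3 against 2.81, 2.37 and 1.92 CPM) and E2f8 (41.3, 43.1 and 38.4 against 3.62, 1.84 and 1.82 CPM), which are themselves S-phase genes, fell most, and the activator E2f2 fell from 6.51, 7.17 and 6.78 to 1.77, 1.35 and 1.28 CPM. E2f1 changed by -0.51 ± 0.08, E2f4 by -0.41 ± 0.10, E2f5 by -0.61 ± 0.10 and E2f6 by 0.25 ± 0.07, all past the adjusted p and short of the fold threshold, and E2f3 did not pass (-0.15 ± 0.07, adjusted p = 0.0846). Of 11 pocket protein and DREAM genes 5 were called lower, led by Mybl2 (-4.14 ± 0.14) and Foxm1 (-3.31 ± 0.11), which switch MuvB to activation.

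Kinesins divided by task within the mitotic and transport lists, which were chosen with earlier results of these data known. All 14 mitotic kinesins were called lower, with a median of -3.41 (-2.72 in WT), and none of the 22 transport kinesins was, with a median of 0.35 and 3 called higher. Kif2a, which is not among the 14, rose by 0.53 ± 0.10, and Kif12, in neither list, did not pass the test (-2.41 ± 1.07). Kif14, needed for cytokinesis, fell from 45, 41.8 and 43.1 to 2.47, 1.67 and 1.49 CPM and Kif11 from 138, 117 and 127 to 9.06, 7.51 and 5.06 CPM. The fall was larger in KO than in WT past the adjusted p for 10 of the 14, beside 11.7% over all genes, including Kif14 (-4.54 and -3.53, difference -1.01 ± 0.18, adjusted p = 0.000578). Kif1a, a motor of vesicle transport best known from neurons, rose from 13.7, 15.8 and 18.3 to 86.8, 81.9 and 79.7 CPM. Kif26b, which acts in cell migration and adhesion, was the transport member that diverged most from WT, with 17.1, 21.5 and 24.2 CPM in control and 12.3, 13.2 and 7.09 CPM in senescent KO libraries (-0.95 ± 0.19) against 0.82 in WT (difference -1.77 ± 0.28, adjusted p = 0.000792).

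**Figure D3:**
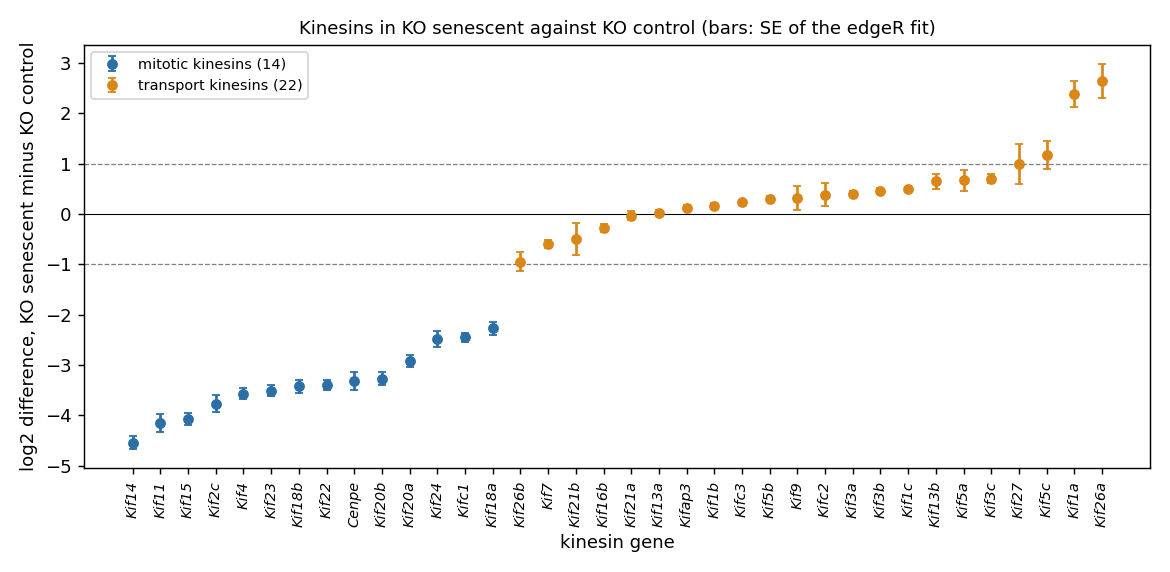
Log2 fold change of KO senescent over KO control (points) with its SE (bars) for 36 kinesin genes in rank order, mitotic in blue and transport in orange, with dashed lines at the fold threshold of 1 and -1. The 14 mitotic members take the 14 lowest places and the transport members run from -0.95 to 2.65.

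Centromere and checkpoint genes fell with the mitotic motors: 17 of 20 centromere genes (median -2.60) and 17 of 19 checkpoint and anaphase-promoting complex genes (median -3.33) were called lower. Cenpa, the histone that marks centromeres, fell from 76.7, 59.5 and 61.5 to 5.01, 5.46 and 5.53 CPM and Cenpf from 143, 131 and 134 to 12.1, 10.3 and 8.74 CPM. Aurkb, the kinase of the chromosomal passenger complex, fell from 78.1, 59.8 and 69.1 to 3.74, 2.94 and 2.67 CPM (-4.47 ± 0.16, against -3.57 in WT) and the checkpoint kinase Bub1 from 66.3, 59.2 and 59.1 to 4.63, 3.15 and 3.64 CPM (-4.02 ± 0.14, against -3.15). Their differences from WT were -0.90 ± 0.23 (adjusted p = 0.0154) and -0.87 ± 0.19 (adjusted p = 0.00444).

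The ring complexes of chromosomes behaved unequally. Condensin, which compacts mitotic chromosomes, had 7 of 8 genes called lower with a median of -3.03. Ncapg fell from 73.0, 61.2 and 68.9 to 4.36, 4.68 and 4.01 CPM, and the other called members were Ncaph (-3.50), Ncapg2 (-3.48), Ncapd2 (-3.28), Smc2 (-2.79), Smc4 (-2.32) and Ncapd3 (-1.95). Ncaph2 passed only the adjusted p (-0.71 ± 0.06). Cohesin, which also folds interphase chromatin, had 3 of 12 genes called lower and a median of -0.60. Of these, Esco2 and Cdca5 act at replication: the acetyltransferase Esco2 fell from 37.1, 37.5 and 34.9 to 1.62, 1.77 and 1.82 CPM and Cdca5 (sororin) from 25.1, 25.2 and 24.3 to 2.16, 2.69 and 3.31 CPM.

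Repair genes divided in the same manner. Homologous recombination, which uses the sister chromatid, had 14 of 17 genes called lower (median -2.64), and the Fanconi anaemia pathway of crosslink repair 9 of 13 (median -1.41). The resection nuclease Exo1 fell from 34.2, 29.3 and 32.4 to 1.93, 2.62 and 1.42 CPM, and Rad51ap1, a cofactor of strand exchange, fell by 3.76 ± 0.13. Fanci fell by 3.72 ± 0.17, further than in WT (difference -1.15 ± 0.23, adjusted p = 0.00144, or -0.92 and not called without KO senescent replicate 3), and its partner Fancd2 fell by 3.69 ± 0.14.

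Of the 8 genes of nonhomologous end joining, which works without a sister chromatid, none was called. Lig4, the ligase of the pathway, rose from 15.8, 17.2 and 17.1 to 22, 23.9 and 25.7 CPM (0.51 ± 0.10) and Paxx rose by 0.39. Xrcc6 (Ku70, -0.69), Xrcc5 (Ku80, -0.31) and the kinase Prkdc (-0.47) fell. Xrcc4, Dclre1c and Nhej1 did not pass the test, at 0.20 ± 0.10, 0.14 ± 0.13 and -0.41 ± 0.23. In damage signalling 5 of 13 genes were called lower, led by Clspn (81.8, 86.2 and 84.5 against 6.32, 5.74 and 5.67 CPM) and Chek1 (20.7, 16.8 and 17.9 against 3.86, 4.57 and 6.04 CPM).

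Histone genes ran against the other S-phase genes. Of 33 replication-dependent histone genes, 24 passed the low-count filter and 21 of those were called higher, with none lower and a median of 2.40 (2.23 in WT). Their summed level was 57.1, 57.7 and 55.3 CPM in KO control and 178, 199 and 200 CPM in KO senescent libraries. Hist1h2ao, a Hist gene outside this list, was called lower, from a mean of 0.731 to 0.0349 CPM (-4.18 ± 0.69, against -3.70 in WT). It met the low-count filter only with the help of control libraries. RNA was selected by poly(A) tails, which canonical replication-dependent histone mRNAs lack, so the values concern tailed transcripts. Of the 24 genes 13 met the filter in control libraries alone and 12 of these were called higher; the other calls are in part set by the filter, as is the median. Near-identical copies make the share of each gene uncertain.

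Hist1h2bc measured 39.0, 43.6 and 39.5 CPM in KO control and 96.9, 111 and 109 CPM in KO senescent libraries (1.38 ± 0.06). Hist1h2be rose from 2.48, 2.29 and 1.72 to 17.7, 18.4 and 18.3 CPM (3.06 ± 0.16), and Hist1h4m by 4.54 ± 0.28. Of the replacement and linker variants, 6 of 12 were called lower, among them Cenpa and the linker H1fx (-2.36 ± 0.19). The linker histone Hist1h1c, whose transcript is tailed, rose from 55.1, 53.2 and 50.4 to 159, 186 and 166 CPM.

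The nuclear lamina lost Lmnb1, lamin B1, from 122, 98.3 and 98.9 to 11.4, 10.6 and 10.3 CPM (-3.31 ± 0.11, adjusted p = 4.7e-13), against -3.20 in WT (difference -0.11 ± 0.15, adjusted p = 0.68). Of 14 lamina and envelope genes 5 were called lower, and Syne2, which ties the envelope to actin, fell by 2.18. Hmgb2, a chromatin protein of dividing cells, fell from 186, 169 and 167 to 19.2, 16.6 and 16.5 CPM. Hmga1, an architectural protein of senescent chromatin, rose from 371, 249 and 263 to 602, 535 and 710.4 CPM (1.07 ± 0.18) while its WT change was -0.01 (difference 1.08 ± 0.26, adjusted p = 0.019). The Hmga1 call in KO was lost without replicate 2 (0.95) or 3 (0.99) of KO control and without KO senescent replicate 3 (0.95), and the call of the difference without any 1 of 5 libraries: it was 0.97, 1.00 and 0.96 without those 3, 0.96 without WT control replicate 3 and 1.04 (adjusted p = 0.0518) without WT senescent replicate 2.

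All 8 DNA methylation genes fell and 5 were called. The maintenance methyltransferase Dnmt1 fell from 259.5, 258 and 254 to 66.6, 67.7 and 59.3 CPM, its guide Uhrf1 from 151, 144 and 146 to 13.8, 14.1 and 11.1 CPM and the remodeller Hells fell by 2.97. Tet1, which oxidises methylcytosine, fell by 2.05 ± 0.23, further than in WT (difference -1.20 ± 0.32, adjusted p = 0.0107), and Dnmt3b fell by 1.29. Dnmt3a (-0.90), Tet2 (-0.65) and Tet3 (-0.82) fell short of the fold threshold. Among 15 Polycomb genes, the methyltransferase Ezh2 fell from 79.1, 70.9 and 67.4 to 16.8, 19.2 and 19.9 CPM.

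Trp53 transcript did not pass the test. It measured 136, 123 and 118 CPM in KO control and 118, 111 and 124 CPM in KO senescent libraries (-0.10 ± 0.06, adjusted p = 0.199). Among its targets, 10 of 22 arrest and stress targets were called higher and 1 lower (median 0.96, against 1.00 in WT), and 4 of 11 death-related targets. The p53 antagonist Mdm2 rose from 115, 101.1 and 106 to 309, 288 and 323 CPM (1.52 ± 0.06), while its relative Mdm4 fell by 0.82 and Ppm1d, a phosphatase that shuts p53 off, fell by 0.37. The damage-inducible Gadd45a rose from 14.4, 16 and 14.9 to 54.4, 62.1 and 60.6 CPM. The called-lower member was Ckap2 (-1.78 ± 0.09), a spindle protein.

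The response of p53 targets was lower in KO than in WT past the adjusted p for 11 of the 22 arrest and stress targets and higher for 1, beside 11.7% and 9.24% over all genes. Trp63, a p53 relative of epithelia, fell in KO from 9.03, 8.28 and 7.85 to 3.47, 3.61 and 3.00 CPM and changed by 0.30 in WT (difference -1.62 ± 0.19, adjusted p = 1.19e-05). Pmaip1 (Noxa), a BH3-only death protein, rose from 5.48, 4.07 and 4.08 to 40.1, 41.5 and 43.8 CPM (3.20 ± 0.10, against 3.25 in WT). The p53-inducible receptor Eda2r rose from 27.7, 20.6 and 21.0 to 63.4, 63.9 and 58.0 CPM.

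Around mitochondrial death, pro-survival Bcl2 rose from 6.04, 7.10 and 6.99 to 16.5, 17.0 and 14.9 CPM (1.27 ± 0.12), Bcl2l1 (BCL-XL) by 0.91 and Bcl2l2 by 0.62. Of 6 pro-survival genes Bcl2 alone was called higher and 2 were called lower, the close copies Bcl2a1b (0.480, 0.471 and 0.772 against 0.154, 0.142 and 0.0675 CPM) and Bcl2a1d (0.719, 0.336 and 0.686 against 0.270, 0.248 and 0.101 CPM). Both met the low-count filter only with the help of control libraries. Mcl1 overlapped between groups (0.09 ± 0.05, adjusted p = 0.182). Pro-apoptotic Bok fell from 28.2, 20.4 and 21.4 to 7.91, 8.36 and 9.79 CPM and the BH3-only gene Bmf from 5.55, 10.1 and 7.98 to 2.08, 2.76 and 1.45 CPM, the latter further than in WT (-1.92 and -0.54, difference -1.38 ± 0.38, adjusted p = 0.018). Of 12 death and decoy receptors of the TNF family 5 were called higher and 1 lower. The decoy Tnfrsf11b (osteoprotegerin) rose from 48.1, 43.6 and 49.1 to 112, 108 and 105 CPM. The death receptor Tnfrsf25 fell by 1.77 ± 0.14 in KO, with a WT change of -0.69 (difference -1.08 ± 0.20, adjusted p = 0.000731, or -0.96 and not called without KO senescent replicate 2).

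AP-1 and NF-kB factors drive inflammatory secretion. Of 12 AP-1 factors and relatives 4 were called higher and 1 lower. Fosl1 (FRA1) measured 55.5, 40.1 and 45 CPM in KO control and 112, 102 and 119 CPM in KO senescent libraries (1.24 ± 0.11), while the WT change was 0.14 (difference 1.11 ± 0.15, adjusted p = 0.000293). The small MAF proteins Maff (27.7, 20.7 and 20.5 against 131, 139.5 and 150.0 CPM) and Mafk (38.2, 35.3 and 37.8 against 100.7, 106 and 110.0 CPM) also rose further than in WT, with differences of 0.88 ± 0.13 and 0.71 ± 0.09. No NF-kB gene was called higher among 11, 7 rose below the fold threshold, 4 fell, and of these the IkB-like Bcl3 alone was called, from 28.1, 27.8 and 26.6 to 8.83, 9.43 and 8.0 CPM.

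Cartilage matrix had the lowest median of the gene groups examined outside replication, mitosis and the kinases and cyclins that drive them. Of 20 genes 16 were called lower and none higher, with a median of -2.67 (-1.82 in WT). Ears contain elastic cartilage, and the labels name the cells only as fibroblasts. The summed level of 22 cartilage matrix genes was 6470, 9270 and 8460 CPM in KO control and 1140, 1200 and 1010 CPM in KO senescent libraries. KO control replicate 1 was the lowest control library for all 16 called genes. In bulk RNA, fewer cells of a type and less RNA per cell cannot be told apart.

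Cnmd (chondromodulin), which keeps vessels out of cartilage, fell from 168, 286 and 262 to 6.79, 5.56 and 5.03 CPM. The change of -5.37 ± 0.27 (adjusted p = 1.76e-07) was larger than the -2.91 of WT (difference -2.46 ± 0.33, adjusted p = 0.0013). Matn3, a matrix adaptor, fell from 11.6, 21.0 and 21.0 to 0.463, 0.213 and 0.135 CPM (-6.06 ± 0.40), Col9a1 from 43.7, 75.9 and 73.4 to 2.62, 4.08 and 2.67 CPM (-4.36 ± 0.32) and Col9a3 fell by 4.02. For 12 of the 20 genes the fall was larger in KO at the called level, beside 2.51% over all genes. There were 9 to 14 such genes when single libraries were left out.

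Among 15 chondrocyte regulators 5 were called lower and 2 higher. Sox5, a partner of SOX9, fell by 1.68 ± 0.17 and the growth plate receptor Fgfr3 fell by 1.98 ± 0.27, against changes of -0.35 and -0.33 in WT (differences -1.33 ± 0.23 and -1.64 ± 0.35). Both differences were called.

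Fibrillar collagens, the main product of fibroblasts, had 5 of 7 genes called lower and summed to 27000, 28500 and 27600 CPM in KO control and 10900, 11400 and 10900 CPM in KO senescent libraries. Col1a1 fell from 9345, 9386 and 9222 to 2933, 2948 and 2976 CPM. Its change of -1.66 ± 0.04 was smaller than the -2.06 of WT (difference 0.41 ± 0.06, adjusted p = 7.79e-05). Col3a1 fell by 1.61 ± 0.09, further than in WT (-1.11, difference -0.50 ± 0.12, adjusted p = 0.0111). Col1a2 (-1.21), Col5a1 (-1.18), Col5a3 (-1.45) and Col5a2 (-0.69) also fell, the last short of the fold threshold. The beaded-filament collagen Col6a3 fell from 1720, 2144 and 2090 to 371, 359.5 and 293 CPM. Col14a1, which sits on collagen fibrils, fell by 2.34 ± 0.26 in KO and changed by -0.28 in WT (difference -2.06 ± 0.36, adjusted p = 0.00403), whereas Col28a1 rose in KO from 17.6, 25 and 21.2 to 53.3, 52.1 and 42.2 CPM, less than in WT (2.96).

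Among elastic fibre genes Eln, elastin, fell from 1560, 2942 and 2504 to 231, 299.8 and 235 CPM and Fbn2, the fibrillin of developing tissue, from 773, 1073 and 1000 to 109, 122 and 69.2 CPM. Fbn2 fell further in KO (-3.25) than in WT (-1.95, difference -1.30 ± 0.28, adjusted p = 0.0124), and Mfap2, a fibrillin partner, fell by 1.17 in KO and changed by 0.51 in WT (difference -1.69 ± 0.22, adjusted p = 2.5e-05). Postn (periostin) fell from 1786, 2403 and 2226 to 424, 479 and 360.5 CPM. Dcn, decorin, rose by contrast from 21.0, 26.5 and 27.5 to 272, 293 and 251 CPM (3.44 ± 0.09), in WT by 3.37. Lum, lumican, overlapped between KO groups (66.5, 110.5 and 94.5 against 118, 125 and 93.7 CPM) while it rose in WT by 1.46 (difference -1.15 ± 0.30, adjusted p = 0.0295). That call was lost without any 1 of 9 libraries, from adjusted p = 0.0514 without WT senescent replicate 1 to adjusted p = 0.0706 without WT control replicate 1, and held without KO control replicate 1, KO senescent replicate 2 or WT control replicate 2.

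Of 15 matrix metalloproteinases 5 were called higher and 2 lower: the stromelysin Mmp3 rose from 45.4, 46.0 and 40.8 to 194, 187 and 189.8 CPM and Mmp15 from 2.00, 1.99 and 1.5 to 8.37, 9.32 and 9.08 CPM, and Mmp23 fell by 1.42. Adamts16 fell from 32.2, 50.1 and 47.9 to 2.74, 3.22 and 1.22 CPM (-4.19 ± 0.27 in KO and -1.92 in WT, difference -2.27 ± 0.39, adjusted p = 0.00237). Serpinb2, an inhibitor of plasminogen activators, rose from 6.71, 3.87 and 5.11 to 22.5, 20.0 and 30.4 CPM.

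Secreted growth factors rose broadly. Of 25 genes 15 were called higher (13 of the 23 that met the filter in control libraries alone) and 1, Hgf, lower, with a median of 1.54 (0.86 in WT). Their summed level was 887, 834 and 833 CPM in KO control and 2090, 2020 and 2140 CPM in KO senescent libraries.

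For 5 of the 25 genes the growth factor response was called higher in KO, beside 1.15% over all genes. Among them, and named after their values were seen, were Hbegf (59.9, 36.5 and 41.8 against 178, 169.9 and 214 CPM), Ereg (83.4, 69.0 and 68.2 against 260.2, 229 and 269 CPM), Bdnf (22.9, 18 and 17.8 against 88.8, 81.2 and 105 CPM) and Pdgfb (0.520, 0.303 and 0.129 against 4.13, 3.79 and 3.95 CPM). Hbegf and Ereg are ligands of the EGF receptor, Bdnf is a neurotrophin, and Pdgfb stimulates mesenchymal cells. Their differences from WT were 1.51 ± 0.24, 1.44 ± 0.13, 1.19 ± 0.18 and 2.20 ± 0.46.

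Nrg1, a ligand of ERBB receptors, rose from 3.44, 3.67 and 3.52 to 25.1, 23.6 and 21.8 CPM (2.72 ± 0.11, against 2.64 in WT, difference 0.08 ± 0.15, adjusted p = 0.762). Fgf2, also named after its values were seen, rose from 125, 125 and 125 to 709.5, 659 and 663 CPM. Hgf went the other way: it fell in KO from 46.3, 51.6 and 48.1 to 23.7, 22.6 and 17.9 CPM (-1.19 ± 0.08) and changed by 0.32 in WT (difference -1.52 ± 0.12, adjusted p = 1.64e-07). In the IGF axis the fetal growth factor Igf2 rose from 14.7, 19.9 and 20.6 to 356, 407 and 316 CPM (4.29 ± 0.12), less than in WT (4.90, difference -0.61 ± 0.17, adjusted p = 0.0243).

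Interleukins and colony-stimulating factors had 7 of 19 genes called higher and 3 lower. Lif, of the interleukin 6 family, rose from 6.59, 3.94 and 5.41 to 37.6, 33.8 and 45.2 CPM (2.88 ± 0.17) and Il11, of the same family, from 11.6, 8.24 and 6.39 to 34.2, 30.5 and 35.4 CPM (1.93 ± 0.20), against 1.29 and 0.73 in WT (differences 1.60 ± 0.23 and 1.20 ± 0.28, both called). Il6 itself, named after its value was seen, fell from 6.28, 6.26 and 6.74 to 2.93, 3.86 and 2.73 CPM (-1.01 ± 0.16), against -0.76 in WT. Il1rn, the interleukin 1 receptor antagonist, measured 28.9, 37.2 and 38.2 CPM in KO control and 7.17, 7.51 and 5.43 CPM in KO senescent libraries. The change of -2.38 ± 0.13 differed from that of WT (0.15, difference -2.53 ± 0.18, adjusted p = 2.9e-07).

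Chemokines attract leukocytes. Of 12 CC and CX3C genes 6 were called higher (2 of the 8 that met the filter in control libraries alone), and 3 when KO control replicate 3 was omitted, as when KO senescent replicate 2 was. Ccl2, which attracts monocytes, rose from 7.87, 5.45 and 5.88 to 23.2, 18.9 and 25.5 CPM and Ccl7 from 5.32, 6.39 and 5.96 to 16, 17.1 and 15.7 CPM. Of 8 CXC genes 3 were called higher (1 of such 6) and 1 lower: Cxcl16 rose from 2.64, 2.52 and 2.40 to 8.06, 10.2 and 10.4 CPM, Cxcl10 from 0.520, 0.336 and 0.0858 to 0.887, 1.06 and 1.89 CPM and Cxcl2 by 1.75 ± 0.57, and Cxcl3 fell by 1.36 ± 0.25. Cxcl1 did not pass (-0.34 ± 0.19, adjusted p = 0.127). Cxcl5 fell by 0.57, and Cxcl14 rose by 0.74. Cxcl12, a homing signal, fell in KO (-0.19 ± 0.06) and changed by 0.81 in WT (difference -1.002 ± 0.08, adjusted p = 2.29e-07, and not called without any 1 of 5 libraries: it was -0.93 without KO senescent replicate 3, -0.98 without KO control replicate 2 or WT senescent replicate 3, and -0.997 and -0.994 without WT control replicates 1 and 2).

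Among WNT ligands Wnt11 rose from 3.76, 2.42 and 2.57 to 19.9, 18.6 and 20.1 CPM (2.75 ± 0.14) and Wnt5a, a noncanonical ligand, from 70.3, 68.6 and 66.5 to 142, 144 and 140.3 CPM (1.05 ± 0.05). Of 9 antagonists 6 were called higher and 1 lower. Wif1, which binds WNT proteins, rose from 0.400, 0.336 and 0.429 to 17.8, 21.9 and 16.5 CPM (5.59 ± 0.22). Sfrp1 rose from 87.7, 126 and 109.8 to 347, 416 and 259 CPM, by less than in WT (1.66 and 3.52, difference -1.87 ± 0.26, adjusted p = 0.00126). The target gene Axin2, a readout of canonical signalling, rose from 5.04, 4.37 and 4.59 to 21.8, 24.5 and 20.7 CPM (2.26 ± 0.14, against 1.42 in WT).

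Of 22 TGF-beta and BMP genes 8 were called higher and 1 lower. Grem1, which traps BMPs, rose from 388, 362 and 371 to 2218, 1958 and 2074 CPM (2.48 ± 0.08), and the activin subunit Inhbb from 24.5, 19.6 and 17.8 to 79.2, 89.5 and 75.0 CPM. Tgfbi, a matrix target of TGF-beta, fell from 104, 120.2 and 118 to 18.3, 21.8 and 19.8 CPM. In the Hedgehog pathway the coreceptor Gas1 fell from 179, 240.1 and 211 to 35.5, 43.3 and 27.1 CPM (-2.57 ± 0.18 in KO and -0.94 in WT, difference -1.63 ± 0.25, adjusted p = 0.00203).

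**Figure D4:**
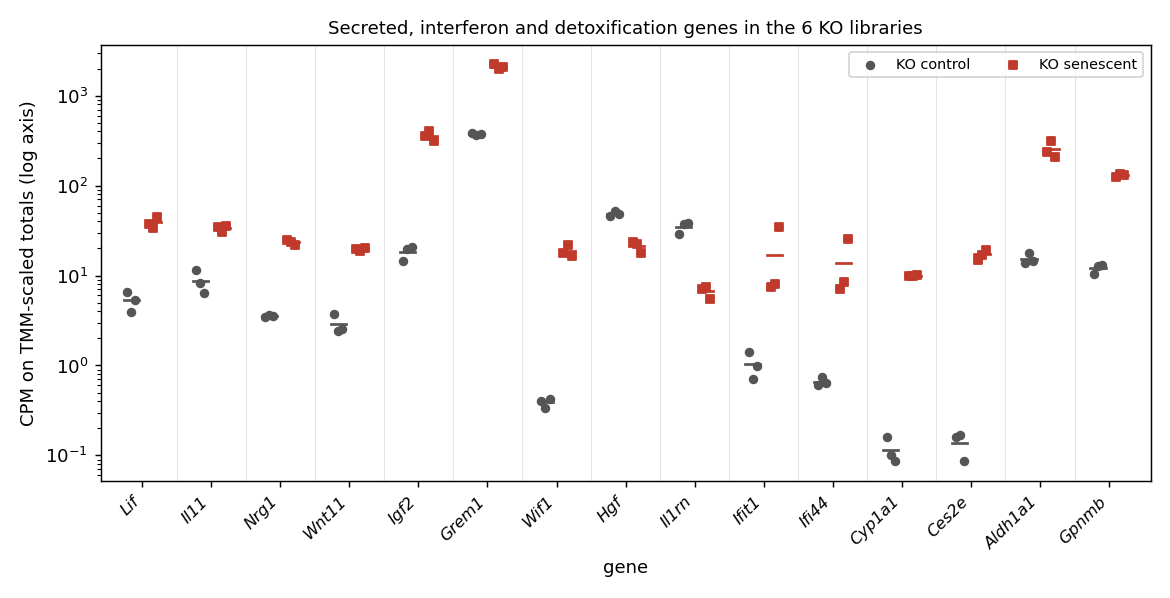
CPM (log axis) of 15 secreted, interferon and metabolic genes in the 3 KO control (grey circles) and 3 KO senescent (red squares) libraries, with the group mean as a bar. The groups do not overlap for any of them, Hgf and Il1rn lie lower in KO senescent libraries, and Ifit1 and Ifi44 are spread by KO senescent replicate 3.

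Interferon genes rose in KO senescence, unevenly among libraries. Of 33 antiviral effectors 19 were called higher and none lower (median 1.49, against 2.37 in WT), as were 10 of 14 interferon-induced GTPases (median 1.78, against 2.89). Of those that met the filter in control libraries alone, 16 of 28 effectors and 7 of 10 GTPases were called higher. Effectors summed to 372, 401 and 365 CPM in KO control and 639, 714 and 932 CPM in KO senescent libraries. GTPases summed to 33.1, 41.5 and 38.7 CPM and 90.4, 104 and 168 CPM. KO senescent replicate 3 was the highest library for 17 of the 19 called effectors, by a median of 2.44-fold over the mean of replicates 1 and 2, and for 9 of the 10 called GTPases, by 1.58-fold.

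Ifit1 measured 1.40, 0.707 and 0.987 CPM in KO control and 7.44, 8.15 and 34.8 CPM in KO senescent libraries (4.05 ± 0.86, adjusted p = 0.00337). Ifi44, another antiviral gene, rose from 0.600, 0.740 and 0.643 to 7.13, 8.50 and 25.5 CPM (4.36 ± 0.68). Without replicate 3 the number of called effectors was 19 and of called GTPases 9. Igtp rose from 1.08, 1.82 and 1.89 to 8.37, 10.8 and 17.7 CPM and Iigp1 from 0.440, 1.41 and 1.07 to 5.32, 5.42 and 16.4 CPM. Ifi203, of the DNA-binding Ifi200 group, rose by 1.68 ± 0.25.

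The effector response was smaller in KO than in WT at the called level for 2 genes, or 9 without KO senescent replicate 3, 4 without WT senescent replicate 1 and 1 without KO control replicate 2, KO senescent replicate 1 or 2, or any 1 WT control library. For the GTPases the count was 4, and 2 without KO control replicate 2, WT control replicate 2 or WT senescent replicate 2. The share over all genes was 2.51%. Trim30a, a brake on innate signalling, rose from 1.88, 1.45 and 1.67 to 3.35, 4.89 and 6.38 CPM in KO (1.56 ± 0.24) and by 3.10 in WT (difference -1.54 ± 0.34, adjusted p = 0.00379).

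Sensors moved both ways, with 4 of 17 called higher and 2 lower. The RNA sensor Ifih1 (MDA5) rose from 4.88, 5.11 and 4.50 to 18.1, 18.9 and 27.0 CPM and the regulator Irf7 from 2.28, 3.20 and 2.40 to 6.25, 7.19 and 14.6 CPM. The DNA-sensing pair fell: Cgas from 19.1, 17.5 and 19.6 to 5.67, 5.39 and 5.57 CPM (-1.76 ± 0.10) and Tmem173 (STING) from 38.5, 34.0 and 31.1 to 15.5, 15.7 and 13.6 CPM (-1.21 ± 0.09). Their WT changes were -1.80 and -0.89, and neither difference passed the test (adjusted p = 0.874 and 0.0852).

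MHC class I genes, which present peptides of the cell itself, summed to 528, 541 and 528 CPM in KO control and 891, 918 and 929 CPM in KO senescent libraries. Of 9 genes 5 rose and 1 fell, beside 28.5% and 28.6% over all genes. The response was lower than in WT past the adjusted p for 7, beside 11.7%, with 5 to 8 when single libraries were left out. The light chain B2m rose from 239.5, 245 and 232 to 467, 495 and 486 CPM (1.01 ± 0.06, against 1.45 in WT), at the edge of the fold threshold: it was 0.99 when KO control replicate 3 was left out, and likewise without KO senescent replicate 2. H2-T23 (Qa-1) changed by 0.24 ± 0.09 in KO and 1.37 in WT (difference -1.13 ± 0.13, adjusted p = 1.3e-05). Nlrc5, the activator of class I genes, rose from 1.64, 2.83 and 2.23 to 12.3, 10.4 and 12.2 CPM and the peptide transporter Tap2 from 14.3, 19.4 and 14.9 to 37.8, 45.6 and 45.9 CPM.

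MHC class II genes summed to 51.0, 86.9 and 83.9 CPM and 70.6, 44.2 and 44.8 CPM, which overlap. None of 7 was called, or 4 lower without KO senescent replicate 1. Cd74 measured 16.6, 30.8 and 32.3 CPM in KO control and 22.6, 11.3 and 12.7 CPM in KO senescent libraries (-0.78 ± 0.33, adjusted p = 0.0723). The leukocyte gene Ptprc (3.72, 8.07 and 8.71 against 7.21, 3.29 and 3.24 CPM) shared with Cd74 that KO control replicate 1 was the lowest control and KO senescent replicate 1 the highest senescent library. The part of leukocyte RNA in the class II values was not tested.

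In complement 4 of 11 components and 3 of 8 regulators were called higher, with none lower. Serping1, the C1 inhibitor, rose from 7.63, 10.7 and 9.57 to 55.9, 64.3 and 53.4 CPM, less than in WT (2.63 and 3.82, difference -1.19 ± 0.17, adjusted p = 0.000234), and Clu (clusterin) by 1.95. C1rl overlapped between KO groups (-0.20 ± 0.20) while it changed by 1.26 in WT (difference -1.46 ± 0.28, adjusted p = 0.0015).

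**Figure D5:**
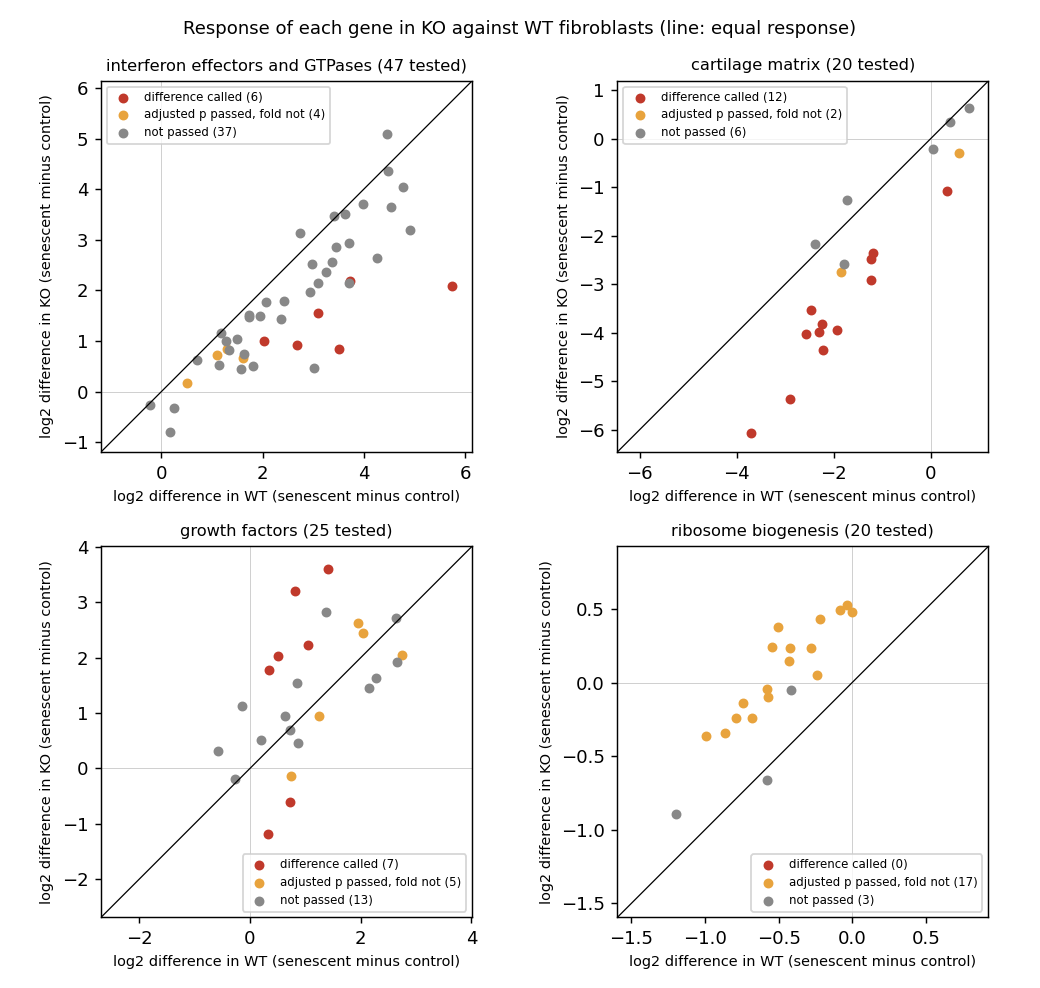
Log2 fold change of each gene in KO (vertical axis) against WT (horizontal axis) senescence for 4 gene groups, with a line of equal response and points coloured by the test of the difference. Cartilage matrix genes lie mostly below the line (12 of 20 called), interferon genes include 6 of 47 called below it, growth factors on both sides (7 of 25 called) and ribosome biogenesis genes almost all above it (17 of 20 past the adjusted p, none past the fold threshold).

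Genes for making ribosomes did not share the fall seen in WT. Of 20 ribosome biogenesis genes none was called in KO, 8 rose, 6 fell and the median was 0.00, against -0.52 in WT. The response was higher in KO past the adjusted p for 17 of the 20 (16 to 18 when single libraries were left out), beside 9.24% over all genes. The rule named no gene here. Named after their values were seen, the nucleolar protein Ncl went from 1017, 838 and 855 to 1077, 995 and 1128 CPM (0.24 ± 0.09, against -0.54 in WT, difference 0.78 ± 0.12) and the transcription factor Myc from 60.0, 52.3 and 51.5 to 69.2, 60.8 and 82.8 CPM (0.38 ± 0.10, against -0.50 in WT, difference 0.88 ± 0.14). Control of the group by Myc was not tested.

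Ribosomal protein genes fell slightly, 27 of 31 of the small and 38 of 44 of the large subunit past the adjusted p and none past the fold threshold (medians -0.29 and -0.31). Glycolysis genes fell in 18 of 20 cases, with 5 called lower. The lactate exporter Slc16a3 fell from 457, 417 and 413 to 88.4, 92.3 and 93.6 CPM (-2.23 ± 0.06) and Pdk1 fell by 1.36. Oxidative phosphorylation had no called gene: none of 42 nuclear genes and none of 13 mitochondrial genes was called, and 26 of the former did not pass the adjusted p.

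Detoxification genes held some of the largest rises. All 5 carboxylesterases that passed the low-count filter, of 19 listed, were called higher. Of these 5, 3 met the filter only with the help of senescent libraries, so the count is a description. Ces2e, which splits esters, was almost absent from KO control libraries (0.160, 0.168 and 0.0858 CPM) and measured 15, 17.1 and 19.4 CPM in KO senescent libraries. Its rise of 6.89 ± 0.22 exceeded the 3.94 of WT (difference 2.94 ± 0.37, adjusted p = 2.45e-05). Ces2g rose from 12.9, 13 and 13.9 to 29.5, 31.0 and 31.9 CPM, and Ces2b, with no count in KO control, was at least 19.9-fold higher in KO senescent libraries (0.764 CPM, against a floor of 3 counts over the 3 libraries, 0.0384 CPM). Ces1f and Ces2f had 0 in at least 1 control library and 1.08, 1.74 and 2.09 and 0.887, 1.59 and 1.49 CPM in KO senescent libraries. Members of this family are close copies and the split between them is uncertain.

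Of 8 genes of the aryl hydrocarbon receptor and its targets 3 were called higher and none lower, beside 11.2% and 7.58% over all genes. In control libraries alone 7 of them met the low-count filter and 2 of these were called higher, beside 7.27%. Cyp1a1, the classical target of the receptor, measured 0.160, 0.101 and 0.0858 CPM in KO control and 9.91, 9.78 and 10.2 CPM in KO senescent libraries (6.37 ± 0.25). Aldh3a1 measured 0.0400, 0.437 and 0.429 and 5.05, 3.90 and 3.88 CPM. Tiparp rose from 26.4, 27.7 and 25.6 to 105, 81.9 and 116 CPM, further than in WT (1.93 and 0.69, difference 1.24 ± 0.17, adjusted p = 0.000469). Cyp1b1 (0.97 ± 0.05) and Ahrr (0.99 ± 0.10) rose just short of the fold threshold. The receptor Ahr fell by 0.38 and its partner Arnt fell by 0.34, and Nqo1 did not pass (-0.06 ± 0.06, adjusted p = 0.4).

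Aldh1a1, which makes retinoic acid, rose from 13.7, 17.7 and 14.5 to 233, 314 and 209 CPM (4.03 ± 0.20), and its relative Aldh1a7 from 26.8, 37.6 and 34.2 to 74.1, 105 and 71.2 CPM, further than in WT (difference 1.13 ± 0.28, adjusted p = 0.0207). Aldh1l2, of mitochondrial folate metabolism, fell from 126, 147 and 156 to 49.8, 45.1 and 42.1 CPM. Of 29 NRF2 and antioxidant genes 5 were called higher and 1 lower, beside 11.2% and 7.58% over all genes. Past the adjusted p 16 rose and 7 fell, beside 28.5% and 28.6%, and the median was 0.15. Hmox1, haem oxygenase, rose from 100.0, 89.8 and 87.1 to 329, 303 and 371 CPM and the cystine carrier Slc7a11 from 7.31, 6.19 and 6.52 to 22.9, 19.1 and 21.4 CPM. Both rose further than in WT, with differences of 0.85 ± 0.10 (adjusted p = 1.68e-05) and 1.13 ± 0.17 (adjusted p = 0.000107).

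Lysosomal genes rose broadly and little. Past the adjusted p, 27 of 42 hydrolases and 16 of 17 proton pump genes rose (medians 0.47 and 0.58), beside 28.5% over all genes. Of the hydrolases 5 were called higher (11.9%), near the 11.2% over all genes, or 3 without KO control replicate 3. Cathepsin D (Ctsd) rose from 428, 491 and 461 to 1156, 1219 and 1198 CPM, and the hyaluronidase Hyal1 from 7.55, 6.66 and 7.98 to 20.9, 23.3 and 23.1 CPM. Gpnmb, a membrane glycoprotein of stressed lysosomes, rose from 10.5, 12.9 and 13.1 to 124, 136 and 133 CPM (3.43 ± 0.08, adjusted p = 1.55e-17).

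Of 55 lipid genes 18 rose and 24 fell, beside 28.5% and 28.6% over all genes, with 6 called higher and 2 lower. The desaturase Fads2 fell from 73.5, 75.2 and 73.7 to 23.6, 25.2 and 23.6 CPM and the lipase Pnpla2, which releases stored fat, rose from 6.87, 7.71 and 7.68 to 18.5, 21.4 and 22.3 CPM. Lpl, lipoprotein lipase, overlapped between KO groups (0.32 ± 0.19) and changed by 1.81 in WT (difference -1.49 ± 0.32, adjusted p = 0.0024). Of 25 cholesterol synthesis genes only Hsd17b7 was called (1.21 ± 0.07). The prostaglandin enzyme Ptgs2 (COX-2) rose in KO past the adjusted p (0.48 ± 0.18, adjusted p = 0.0494), with overlap between 426, 276 and 316 CPM in control and 484, 398 and 536 CPM in senescent libraries, and stood at -0.78 in WT (difference 1.26 ± 0.26, adjusted p = 0.00904).

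Chaperones of the endoplasmic reticulum fell. Of 16 genes of the unfolded protein response 7 were called lower and none higher (median -0.79, against -1.13 in WT). Hsp90b1 fell from 2684, 2667 and 2651 to 1049, 1025 and 1064 CPM, Pdia6 from 1254, 1271 and 1251 to 478, 488 and 498 CPM and calreticulin (Calr) from 2317, 2360 and 2310 to 999, 1012 and 1026 CPM. Genes of the integrated stress response moved both ways: Ddit3 (CHOP) rose from 24.2, 22.5 and 24.4 to 70.1, 76.0 and 74.0 CPM and Ppp1r15a by 1.33, while Shmt2, of serine metabolism, fell from 242, 218 and 222 to 92.3, 84.7 and 93.5 CPM. The small heat shock protein Hspb1 rose from 64.0, 65.7 and 67.4 to 143, 149 and 152 CPM.

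HOX genes of the posterior body appeared at low counts. All 5 tested genes of the HOX C and D clusters were called higher, with 13 of 18 under the low-count filter. Hoxd13 had no count in KO control and 1.08, 0.461 and 1.49 CPM in KO senescent libraries, at least 26.4-fold higher, Hoxd11 was at least 11.2-fold and Hoxa10 at least 10.9-fold higher on the same floor. Hoxb9 measured 0, 0.0336 and 0 CPM in KO control and 2.58, 1.45 and 2.29 CPM in KO senescent libraries, and Hoxc13 1.28, 1.25 and 1.84 and 4.32, 4.15 and 5.23 CPM. Hoxa2 fell in KO from 15.5, 15.8 and 16.4 to 9.10, 9.39 and 6.34 CPM (-0.95 ± 0.12) and changed by 0.20 in WT (difference -1.14 ± 0.17, adjusted p = 8.41e-05, or -0.98 and not called without KO senescent replicate 3). Of the 5 called genes of the C and D clusters 4 met the filter only with the help of senescent libraries, so the count is a description.

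Among 23 imprinted genes 6 were called higher and 2 lower. Beside Igf2 and Dcn, Mest fell from 111, 201 and 181 to 26.9, 39.6 and 19.9 CPM (-2.51 ± 0.30). Its difference from WT (-1.58 ± 0.40, adjusted p = 0.0244) missed the threshold without any 1 of 8 libraries, from adjusted p = 0.0506 without KO senescent replicate 3 to adjusted p = 0.0625 without KO control replicate 2, and held without the other 4, KO control replicate 1, KO senescent replicate 2, WT control replicate 2 and WT senescent replicate 1.

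Few clock genes were called at this time point, in KO cells that the paper describes as lacking rhythm. The E-box (CACGTG), the letters bound by BMAL1 and CLOCK, lay in 5 of 19 clock promoters (26.3%), against 9.37% of the promoters of genes tested and 6.86% of all promoters. Of 7 activators Arntl alone was called. Clock (108, 110.0 and 112 against 122, 119.5 and 98.3 CPM) and Npas2 (13.6, 16.2 and 12.1 against 12.1, 15.3 and 11.4 CPM) overlapped, and Rora rose by 0.79 and Arntl2 by 0.38. Of 9 repressors none was called. Among outputs Nr1d1 (REV-ERB alpha), a target of BMAL1 and repressor of Arntl, rose from 3.88, 4.64 and 3.86 to 11.8, 11.9 and 12.5 CPM (1.54 ± 0.12, against 0.87 in WT, difference 0.67 ± 0.15, adjusted p = 0.00344). Dbp, another output, overlapped between KO groups (4.32, 6.19 and 3.95 against 5.17, 6.55 and 5.06 CPM) and rose in WT by 1.31 (difference -1.11 ± 0.31, adjusted p = 0.0142, or -0.88 without KO control replicate 2 and -0.87 without WT control replicate 3, not called in either case). Tef rose by 0.30, Bhlhe41 by 0.61 and Nfil3 fell by 0.53, and Nr1d2, Hlf and Bhlhe40 did not pass the test.

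All cultures had received dexamethasone, and glucocorticoid targets differed between the KO groups in both directions. Of 17 genes 6 were called higher and 1 lower. Fkbp5, a chaperone partner of the receptor, fell from 68.5, 64.7 and 64.9 to 19.2, 21.8 and 23.1 CPM (-1.63 ± 0.08), and the phosphatase Dusp1 rose from 44.9, 40.9 and 43.7 to 139, 141 and 150.4 CPM, further than in WT (1.73 and 0.86, difference 0.88 ± 0.08, adjusted p = 1.07e-06). Metallothionein Mt2 rose by 1.46.

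Of 24 integrins 11 rose and 6 fell, beside 28.5% and 28.6% over all genes. Called higher were 6 and lower 2, beside 11.2% and 7.58%. Itga8, a fibronectin receptor of contractile cells, rose from 15.3, 18.3 and 18.3 to 42.2, 48.9 and 37.3 CPM and Itga7, a laminin receptor, from 10.3, 10.4 and 8.66 to 20.4, 21.3 and 21.8 CPM. Itga10, a collagen receptor of chondrocytes, fell by 1.34. Itgb6, an activator of TGF-beta found on epithelia, rose from 0.240, 0.101 and 0.386 to 1.70, 1.03 and 1.49 CPM and stood at 0.13 in WT (difference 2.42 ± 0.61, adjusted p = 0.00754), and Itgb5 rose by 0.92. Of 18 smooth muscle genes 7 rose and 3 fell, with 4 called higher and none lower, beside the same shares over all genes. The called genes included the myosin Myh11 (3.12, 4.58 and 4.98 against 18.7, 21.8 and 13.3 CPM) and Lmod1 (9.27, 11.3 and 9.01 against 34.0, 37.1 and 33.3 CPM).

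Markers of other cell types moved in both directions, at low levels. Of 8 tested keratinocyte markers 5 were called higher and 1 lower, with Krt5 at 0.160, 1.55 and 1.11 against 5.36, 5.92 and 5.40 CPM, Krt15 at 0.0400, 1.38 and 0.343 against 7.91, 9.46 and 7.69 CPM and Dsp at 0.799, 0.370 and 0.601 against 6.83, 7.51 and 6.61 CPM. Of 6 macrophage markers 1 was called higher, Lyz2 (0.200, 0.202 and 0.172 against 3.12, 3.12 and 2.33 CPM), and Csf1r did not pass (0.09 ± 0.23, adjusted p = 0.755). Of 8 muscle markers 4 were called higher, as were 2 of 7 endothelial, 2 of 5 melanocyte and 2 of 8 Schwann cell markers, the last with 1 lower. Of 4 T and B cell markers 2 were called lower and none higher, and of 9 adipocyte genes 3 were called higher and 1 lower. Of those that met the filter in control libraries alone, 3 of 6 keratinocyte and 0 of 5 macrophage markers were called higher. For muscle it was 2 of 5, for endothelium 1 of 6, for melanocytes 1 of 4 and for Schwann cells 1 of 7. For adipocyte genes it was 2 of 7, and the remaining calls higher are in part set by the filter. The summed levels given at the start were lower in every KO senescent than in any KO control library for Schwann cell and adipocyte markers. For keratinocyte and melanocyte markers they were higher in every KO senescent than in any KO control library. The part of these other cell types in the integrin, contractile and interferon values was not tested.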

How the data were processed

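The deposited values are raw counts of reads per gene, made by the authors from oligo-dT selected RNA (NEBNext Ultra II libraries) with bcl2fastq 2.17, Trimmomatic 0.36, STAR 2.5.2b on GRCm38 and featureCounts. Only uniquely mapped reads over exons were counted, so near-identical copies (histones, H2 genes, carboxylesterases, Gbp genes) and genes with overlapping exons, Arntl, Ccnd1 and Cd74 among them, are uncertain. The annotation release and the use of strand are not given in the sources used here.

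Both tables, KO and WT, were joined by gene identifier. All 12 libraries, in 4 groups of 3, were fitted in 1 model with R 4.3.3 and edgeR 4.0.16 (limma 3.58.1): the default filter on low counts, TMM scaling and the robust quasi-likelihood test of group means, with Benjamini-Hochberg adjustment over 17416 genes. The thresholds were 0.05 on the adjusted p and 1 on the log2 fold change. CPM use TMM-scaled totals. The fit was tested on simulated data. DESeq2 1.42.0, the 6 KO libraries alone, RLE scaling, no filter, a replicate block, other fold thresholds and leaving out each library were alternatives, and the interaction counts of 8 gene groups were added to them after seeing the data. Counts of genes that met the low-count filter in control libraries alone were likewise made after seeing the data.

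The gene groups, their members and the naming rule were chosen with earlier results of these data known. Named are a panel of 8 genes, up to 2 genes called higher and 2 called lower with the largest change in each role of a list (mean of at least 5 CPM in KO and no overlap between groups), the largest difference from WT in each list, all tested members of roles with 8 or fewer, and the leading genes of 6 symbol families. Others are said to have been chosen after their values were seen. Some genes that the rule names are not reported here. Promoters came from RefSeq (GRCm38.p6), and of the tested symbols 12041 had one.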

Additional observations from a re-analysis of the deposited data

Results flagged for a closer look

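The flags rest on the interaction term of the fit, the test of whether the KO response differed from the WT response at an adjusted p under 0.05 and a difference over 1 on the log2 scale. It gave a response higher in KO for 200 genes and lower for 437. Each value below is the KO log2 fold change minus the WT one.

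Among cell cycle, damage and death genes, the kinesin Kif26b (-1.77), the repair gene Fanci (-1.15), the p53 relative Trp63 (-1.62), the BH3-only gene Bmf (-1.38) and the death receptor Tnfrsf25 (-1.08) had a lower response in KO. The chromatin protein Hmga1 (1.08) and the AP-1 factor Fosl1 (1.11) had a higher one. Among clock genes Dbp differed by -1.11.

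Among secreted, immune and matrix genes the response was lower in KO for the chemokine Cxcl12 (-1.002), the receptor antagonist Il1rn (-2.53), the antiviral Trim30a (-1.54), the class I gene H2-T23 (-1.13), the complement protease relative C1rl (-1.46), the protease Adamts16 (-2.27), the cartilage gene Cnmd (-2.46), the collagen Col14a1 (-2.06), the microfibril gene Mfap2 (-1.69), lumican (Lum, -1.15) and the WNT antagonist Sfrp1 (-1.87).

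Of the metabolic, developmental and contractile genes, the cathepsin Ctso (-1.13), lipoprotein lipase (Lpl, -1.49), Hoxa2 (-1.14) and the imprinted gene Mest (-1.58) had a lower response in KO. The carboxylesterase Ces2e (2.94), the prostaglandin enzyme Ptgs2 (1.26) and the skeletal actin Acta1 (1.08) had a higher one. Acta1 lost its call without any 1 of 8 libraries, as did Mest, and Lum lost it without any 1 of 9. Groups of 3 libraries are too small for a test of single outlying samples.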

How the results depend on the processing

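No result reversed its direction under the alternatives run. Counts of genes called higher and lower in KO senescence, 1957 and 1321, were 4964 and 4983 with no fold threshold and 1035 and 730 with glmTreat, which tests against a log2 fold change of 1. They were 1970 and 1269 with DESeq2, 1783 and 1236 with the 6 KO libraries alone and 2491 and 1409 with no filter. Leaving out single libraries gave 1908 to 1953 and 1240 to 1379. The counts of responses higher and lower in KO, 200 and 437, were 1609 and 2030 with no fold threshold. Without single libraries they ran from 134 (KO control replicate 2) to 346 (WT control replicate 3) and from 337 to 587, and the cause was not tested. With no filter, called genes numbered 4 for the HOX A and B clusters and 12 for the HOX C and D clusters. Of 356 genes named for the KO comparison, 354 kept their side of the threshold under DESeq2. Depth, at 24742546 counts or more per KO library, limits genes under the low-count filter.

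Same-numbered control and senescent libraries correlated weakly in their deviations (r of -0.125, 0.045 and -0.095 in KO and 0.015, 0.043 and 0.108 in WT). The last value was the highest in WT. Groups of 3 cannot exclude that same-numbered libraries share an origin, and the main fit did not pair them. The fit with a replicate block gave 1914 and 1291 genes called in KO and 176 and 403 interactions. Not every library correlated best with its own number, as KO control replicate 1 did with KO senescent replicate 3 (0.173).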
